A study of Mus musculus with 8 samples.

Results

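A set of 9 genes that respond to the glucocorticoid receptor was followed in NIH3T3 cells, a mouse embryonic fibroblast line, treated with Mic-628. They were Klf9, Tsc22d3, Fkbp5, Sgk1, Nr3c1, Zbtb16, Errfi1, Cebpd and Cebpb, taken by symbol from the deposited tables. All 9 were found, each on 1 of 78298 rows, and 8 had enough reads to be among the 17128 rows tested. Poly(A) RNA was sequenced from 4 libraries treated with Mic-628 and from 4 treated with vehicle, each for 1 day. All cells were labelled wild type and grown in DMEM with fetal bovine serum. No group was labelled as given a steroid, and the labels used here give no dose of Mic-628. Each library carries a batch number from 1 to 4, equal to its replicate number, that 1 Mic-628 and 1 vehicle library share. The labels do not tell if each library had its own culture, so the p-values here reflect library-to-library spread that may be technical only. The series is about a Per1 inducer, and glucocorticoids are a classical inducer of Per1. The question here was therefore whether other genes of the glucocorticoid response also differed.

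The glucocorticoid receptor, encoded by Nr3c1, waits in the cytoplasm in a complex with HSP90 and co-chaperones. On binding a steroid it enters the nucleus, where it binds inverted repeats of a short hexamer, the glucocorticoid response elements, and also restrains inflammatory transcription factors. Klf9, Tsc22d3, Fkbp5, Sgk1, Zbtb16, Errfi1 and the C/EBP genes are known to be induced by it in various tissues, but most also answer to other signals such as growth factors, cAMP, cytokines or the circadian clock. Fibroblasts are glucocorticoid-responsive cells, and steroid pulses are widely used to synchronise their clocks.

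The libraries held 18.1 M to 23.2 M counts on listed transcripts. All 10 fibroblast markers, among them Col1a1, Vim and Fn1, were tested, with summed levels of 19893 to 20386 CPM (counts per M counts of a library) with Mic-628 and 22447 to 24061 CPM with vehicle. Of these markers 4 were lower with Mic-628 at an adjusted p under 0.05 (edgeR), namely Col1a2, Col3a1, Vim and Fn1. Of all tested rows 2.25% were lower at this threshold. The part of these 4 markers in the results was not tested. The 4 endothelial markers stayed below 1 CPM in every library, as did 4 of 6 macrophage and blood cell markers, 4 of 6 epithelial markers and 4 of 5 adipocyte markers. Adgre1, Cd3e, Tie1, Adipoq and Lep had no read in any library. Csf1r, Cd68, Krt14, Krt8 and Fabp4 were detected and tested, and were not called. Mean CPM with Mic-628 and with vehicle was 9.09 and 7.83 for Csf1r, 8.0 and 7.08 for Cd68, and 2.86 and 2.74 for Krt14. It was 1.26 and 0.876 for Krt8, and 0.812 and 0.428 for Fabp4. In bulk RNA, fewer expressing cells and less RNA per cell cannot be told apart.

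The sequences shown first are the start-site regions of the genes on which the results turn. Windows running from 250 bases before to 50 bases after annotated starts came from RefSeq on build GRCm38.p6, whereas the count table is on mm39. Windows of 6 of the 9 genes were searched, 14 in all. Cebpd and Zbtb16 had none, and Nr3c1 was left out of this search. Capitals mark matches, on either strand, to the inverted repeat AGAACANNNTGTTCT, its hexamer AGAACA (which is part of the repeat), the E-box CACGTG bound by CLOCK and BMAL1, the cAMP response element TGACGTCA and its core TGACG (which is part of it), or the C/EBP palindrome TTGCGCAA. Klf9 had the largest rise, and its window (chr19:23140976-23141275, plus strand) lies around the start of the deposited transcript. Tsc22d3 had the other rise, and the window shown (chrX:140542619-140542918, minus strand) is the nearest of its 3 to that start, 519 bases away. Sgk1 was not called, and the window shown (chr10:21993640-21993939, plus strand) is the only one of the 14 with the full inverted repeat. Cebpb was not called either, and its window (chr2:167688665-167688964, plus strand) lies around the start of its deposited transcript.
Klf9: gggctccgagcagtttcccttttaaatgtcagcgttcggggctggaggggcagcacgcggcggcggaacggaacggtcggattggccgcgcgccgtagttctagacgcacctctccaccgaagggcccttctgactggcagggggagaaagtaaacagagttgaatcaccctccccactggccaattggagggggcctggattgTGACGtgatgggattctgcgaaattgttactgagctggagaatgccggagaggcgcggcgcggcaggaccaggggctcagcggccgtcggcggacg
Tsc22d3: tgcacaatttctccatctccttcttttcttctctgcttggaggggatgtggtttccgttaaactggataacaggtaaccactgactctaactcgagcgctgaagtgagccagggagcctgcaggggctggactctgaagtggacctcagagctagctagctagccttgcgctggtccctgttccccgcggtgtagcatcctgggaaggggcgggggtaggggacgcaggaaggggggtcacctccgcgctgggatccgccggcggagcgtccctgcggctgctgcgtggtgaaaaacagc
Sgk1: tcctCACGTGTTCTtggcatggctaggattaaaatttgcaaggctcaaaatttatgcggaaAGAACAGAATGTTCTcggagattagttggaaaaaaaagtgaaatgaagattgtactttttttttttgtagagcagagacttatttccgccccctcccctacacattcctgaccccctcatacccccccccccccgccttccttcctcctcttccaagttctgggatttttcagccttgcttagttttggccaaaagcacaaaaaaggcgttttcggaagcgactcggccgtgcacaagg
Cebpb: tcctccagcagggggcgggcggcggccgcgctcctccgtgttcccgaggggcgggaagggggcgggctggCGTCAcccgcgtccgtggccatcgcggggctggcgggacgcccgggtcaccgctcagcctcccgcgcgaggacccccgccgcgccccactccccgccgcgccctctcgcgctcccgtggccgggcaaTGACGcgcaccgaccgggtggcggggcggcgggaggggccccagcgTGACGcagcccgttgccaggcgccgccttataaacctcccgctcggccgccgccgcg

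In the Sgk1 window the inverted repeat begins 189 bases before that annotated start and 965 bases before the start of the deposited Sgk1 transcript. Of all 32851 windows in the table, 3 held the repeat (0.00913%). The first capitals of the Sgk1 window are an E-box that overlaps a single hexamer. The hexamer, with or without its partner, was in 6233 of the 32851 windows, and in 4 of the 14 windows searched for the response genes. The Klf9 window held the core TGACG 46 bases before the start, and the Cebpb window held it 3 times. That core was in 20.8% of all windows. The window of a downstream start of Errfi1 held a full TGACGTCA, found in 1.79% of all windows, and the Fkbp5 window, whose start lies 31375 bases from that of the deposited Fkbp5 transcript, held an E-box, found in 7.15%. The Tsc22d3 window shown held none of these letters. These matches describe the letters in short windows and say nothing of binding.

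Klf9 and Tsc22d3 rose with Mic-628, Errfi1 and Cebpd fell, and Sgk1, Cebpb, Fkbp5 and Nr3c1 were not called. Klf9 moved most, to 1.47 times its vehicle level, while the other 3 changed by between 14.5% and 18.9%. Thus 4 of 8 tested genes were called by edgeR's quasi-likelihood test at an adjusted p under 0.05, where 4.37% of all tested rows were called, 2.13% higher and 2.25% lower. The same 4 genes were those whose CPM did not overlap between the groups, which held for 10.7% of all tested rows (5.63% higher and 5.07% lower). The median log2 fold change of the 8 was -0.05, against -0.004 over all tested rows. The genes were chosen with results of these data known, so the excess over the background carries no test.

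**Figure D1:**
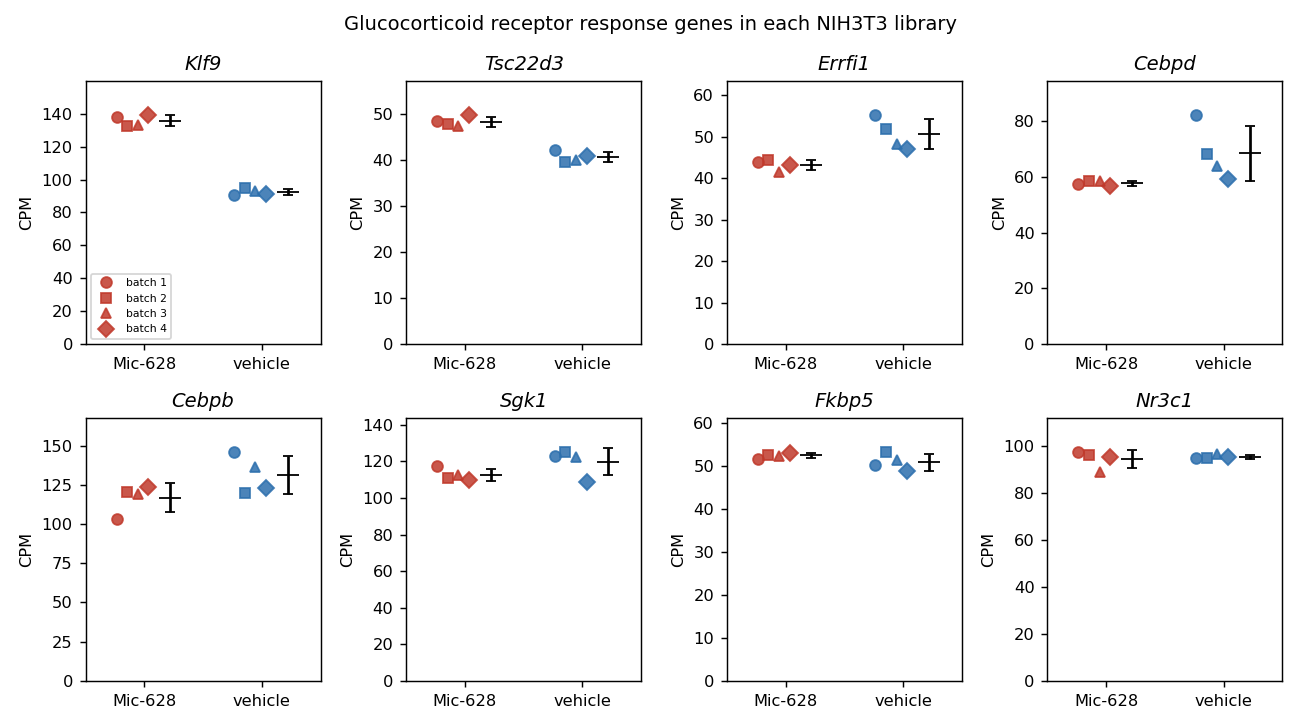
CPM of the 8 detected genes (vertical axes, from 0) in each library, Mic-628 in red at the left and vehicle in blue at the right of each panel. Marker shapes give the batch number, and black bars the mean and SD over 4 libraries. The groups are separate for Klf9, Tsc22d3, Errfi1 and Cebpd and overlap for Cebpb, Sgk1, Fkbp5 and Nr3c1.

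Klf9 encodes a Kruppel-like transcription factor that is an early steroid target and also an output of the circadian clock. On mm39 the deposited transcript ENSMUST00000036884.3 lies on chromosome 19, 23118590 to 23145498, plus strand. It had 137.9, 132.6, 132.9 and 139.0 CPM with Mic-628 (replicates 1 to 4), against 90.4, 94.8, 93.2 and 91.3 CPM with vehicle. All 4 Mic-628 libraries stood well above all 4 vehicle libraries, and the libraries of a group lay close together. The means were 135.6 ± 3.32 CPM with Mic-628 and 92.4 ± 1.95 CPM with vehicle (SD, n = 4 each). The fitted rise was 0.55 on the log2 scale (SE 0.033; edgeR adjusted p = 1.36e-11), an increase of 46.6% with a 95% interval of 39.9% to 53.7%. By p it ranked 12 among the 17128 tested rows, and by size of change 305. In the 4 batches the log2 differences were 0.61, 0.48, 0.51 and 0.61. Klf9 was called under all 17 alternatives, with adjusted p from 2.14e-46 to 5.75e-05.

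Tsc22d3 encodes GILZ, a leucine zipper protein through which glucocorticoids restrain inflammatory signalling. Its deposited transcript ENSMUST00000055738.12 lies on chromosome X, 139440277 to 139443936, minus strand. It had 48.4, 47.8, 47.2 and 49.6 CPM with Mic-628, against 42.1, 39.4, 39.9 and 40.9 CPM with vehicle. The groups did not overlap, but the step between them was smaller than that of Klf9. On the log2 scale it rose by 0.25 (SE 0.040; edgeR adjusted p = 0.000219), an increase of 18.9% with a 95% interval of 12.3% to 25.8%. Since the groups did not overlap, Tsc22d3 was higher in 4 of 4 batches, as under any pairing. It was called under all 17 alternatives.

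Klf9 therefore changed more than Tsc22d3 within the same libraries. The log2 ratio of Klf9 to Tsc22d3 CPM was 1.49 ± 0.016 with Mic-628 and 1.19 ± 0.071 with vehicle (SD, n = 4 each), a difference of 0.30. The difference was 0.51 for the ratio to Fkbp5 and 0.64 for the ratio to Sgk1. For the ratio to Per1, the core clock repressor that the study is about, the difference was -1.98, since Per1 rose more. Per1 itself had 124.5 ± 5.76 CPM with Mic-628 and 21.5 ± 1.21 CPM with vehicle (SD, n = 4 each). Each of these 4 differences had a two-sided exact permutation p of 0.0286, the smallest that 4 libraries against 4 allow, and of 0.0357 after Benjamini-Hochberg adjustment over the 5 ratios tested. The genes were chosen with results of these data known, so these p-values are no independent test. As the groups were separate for each of these ratios, all 4 differences went the same way in 4 of 4 batches, as under any pairing. With the libraries paired by batch, an exact sign-flip test over the 4 pairs gave an adjusted p of 0.156 for each, and 4 pairs cannot pass the threshold. The ratios depend on exon length, so their changes and not their levels are compared.

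**Figure D2:**
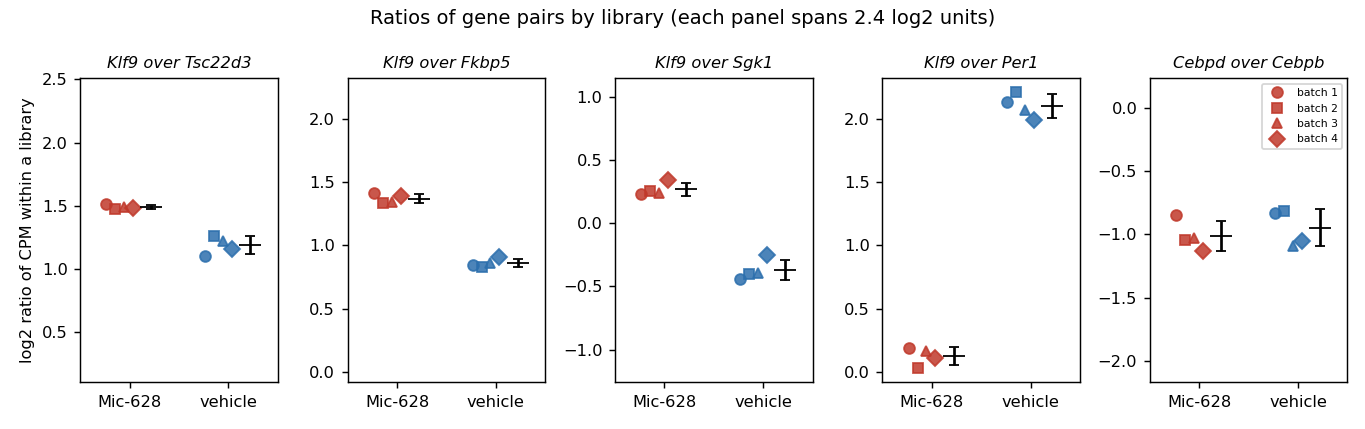
Log2 ratio of the CPM of a gene pair within each library (vertical axes, each spanning the same number of log2 units), Mic-628 left and vehicle right, with shapes for the batch and black bars for the mean and SD. The groups are separate for the 4 ratios of Klf9, with the ratio to Per1 lower with Mic-628, and overlap for Cebpd over Cebpb.

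Errfi1 encodes MIG6, a feedback inhibitor of the EGF receptor that growth factors and steroids both induce. The deposited transcript ENSMUST00000073600.9 lies on chromosome 4, 150938376 to 150953349, plus strand. It had 43.9, 44.4, 41.5 and 43.1 CPM with Mic-628, against 55.1, 51.7, 48.3 and 47.1 CPM with vehicle. Every vehicle library was higher than every Mic-628 library, and the vehicle libraries were the more spread, with vehicle replicate 1 the highest. Its level fell by 14.5% (95% interval -19.9% to -8.61%), a log2 fold change of -0.23 with an SE of 0.046 (edgeR adjusted p = 0.00397). Without overlap it was lower in 4 of 4 batches, as under any pairing, by between 0.13 and 0.33 on the log2 scale. By limma-trend on log2 FPKM it was not called, with adjusted p of 0.0793, 0.0805 and 0.173 in the 3 versions run.

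Cebpd and Cebpb encode C/EBP delta and C/EBP beta, bZIP factors of inflammatory and adipogenic gene control that steroids, cytokines and cAMP induce. Cebpd (ENSMUST00000096232.6, chromosome 16, 15705150 to 15708895, plus strand) had 57.4, 58.4, 58.5 and 56.6 CPM with Mic-628, against 82.0, 68.2, 64.0 and 59.1 CPM with vehicle. The groups just failed to overlap, since vehicle replicate 4 lay close to the Mic-628 libraries and vehicle replicate 1 far above them. Cebpd fell by 15.4% (95% interval -22.6% to -7.56%), a log2 fold change of -0.24 with an SE of 0.062 (edgeR adjusted p = 0.0236). Within batches the log2 differences were -0.51, -0.22, -0.13 and -0.06. The call of Cebpd was not stable. DESeq2 did not make it (adjusted p = 0.201), nor did the 3 versions of limma-trend (0.239, 0.240 and 0.452). Without vehicle replicate 1 the log2 fold change was -0.14 (edgeR adjusted p = 0.0532). The edgeR adjusted p was also over the threshold without vehicle replicate 2 (0.0627) or without Mic-628 replicate 1, 2, 3 or 4 (0.0635, 0.0531, 0.0689 and 0.0545). Cebpd also overlaps the Spidr row on the opposite strand, which fell as well (log2 fold change -0.21; edgeR adjusted p = 0.00559; mean count 1278 with Mic-628 and 1481 with vehicle). The library kit marks strand, but whether the counting used it is not given in the sources used here, so the reads of the pair may be mixed. The part of this overlap in the fall of Cebpd was not tested.

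Cebpb (ENSMUST00000070642.4, chromosome 2, 167530835 to 167532338, plus strand) had 103.5, 120.7, 119.1 and 123.8 CPM with Mic-628, against 145.9, 119.9, 136.3 and 122.9 CPM with vehicle. The groups overlapped, and batch 1 held both the lowest Mic-628 and the highest vehicle library. The fitted difference was -0.17 on the log2 scale, with an SE of 0.053 and a 95% interval of -0.28 to -0.06 (edgeR adjusted p = 0.0792). Single libraries moved it both ways: without vehicle replicate 1 or Mic-628 replicate 1 it was -0.11 (edgeR adjusted p 0.205 and 0.274), and without vehicle replicate 2 or 4 it was called (0.0389 and 0.0336). With no filter on low counts edgeR called it (0.000651), and DESeq2 did not (adjusted p = 0.345). The change of Cebpd did not differ detectably from that of Cebpb. The log2 ratio of the pair was -1.01 ± 0.12 with Mic-628 and -0.95 ± 0.14 with vehicle (SD, n = 4 each). The difference was -0.06 (two-sided exact permutation p = 0.514).

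Sgk1 encodes a kinase that promotes sodium transport and cell survival and is induced by serum as well as by steroids. The deposited transcript ENSMUST00000020145.12 lies on chromosome 10, 21870565 to 21875802, plus strand. It had 117.3, 111.1, 112.4 and 109.7 CPM with Mic-628, against 122.7, 125.1, 122.5 and 108.8 CPM with vehicle. Of the vehicle libraries 3 stood above all Mic-628 libraries, and vehicle replicate 4 lay below them. Its log2 fold change of -0.09 had an SE of 0.040 and a 95% interval of -0.17 to -0.01 (edgeR adjusted p = 0.243). Without vehicle replicate 4 it was -0.13 and called (edgeR adjusted p = 0.0300). The full inverted repeat printed for Sgk1 lies in the window of another annotated start. Sgk1 was not called higher, and whether the receptor acts at this repeat was not tested.

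Fkbp5 encodes FKBP51, an HSP90 co-chaperone that lowers the steroid affinity of the receptor and is a sensitive readout of receptor activity in many tissues. The deposited transcript ENSMUST00000114792.8 lies on chromosome 17, 28618071 to 28736498, minus strand. It had 51.8, 52.7, 52.3 and 53.1 CPM with Mic-628, against 50.3, 53.3, 51.4 and 48.8 CPM with vehicle. The groups overlapped fully. Its log2 fold change of 0.04 had an SE of 0.038 (edgeR adjusted p = 0.630), and the 95% interval of the change ran from -2.48% to 8.84%. This interval lies below the whole interval of the Klf9 rise.

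Nr3c1, the receptor gene itself (ENSMUST00000115567.8, chromosome 18, 39543598 to 39623727, minus strand), had 97.3, 96.0, 88.9 and 95.2 CPM with Mic-628, against 94.8, 94.7, 96.3 and 95.3 CPM with vehicle. Only Mic-628 replicate 3 stood apart, below the others, and without it the log2 fold change turned from -0.01 to 0.01. The change had a 95% interval of -5.82% to 4.03% (edgeR adjusted p = 0.885). A row without a gene name on the opposite strand overlaps Nr3c1 and was not called (log2 fold change 0.01). Zbtb16, which encodes the transcription factor PLZF and is strongly steroid-induced in many cell types, had 0 counts in all 8 libraries. A count of 0 allows up to 3 counts, or 0.130 to 0.166 CPM with Mic-628 and 0.138 to 0.148 CPM with vehicle, for counting error only, so no difference was detectable at this depth.

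**Figure D3:**
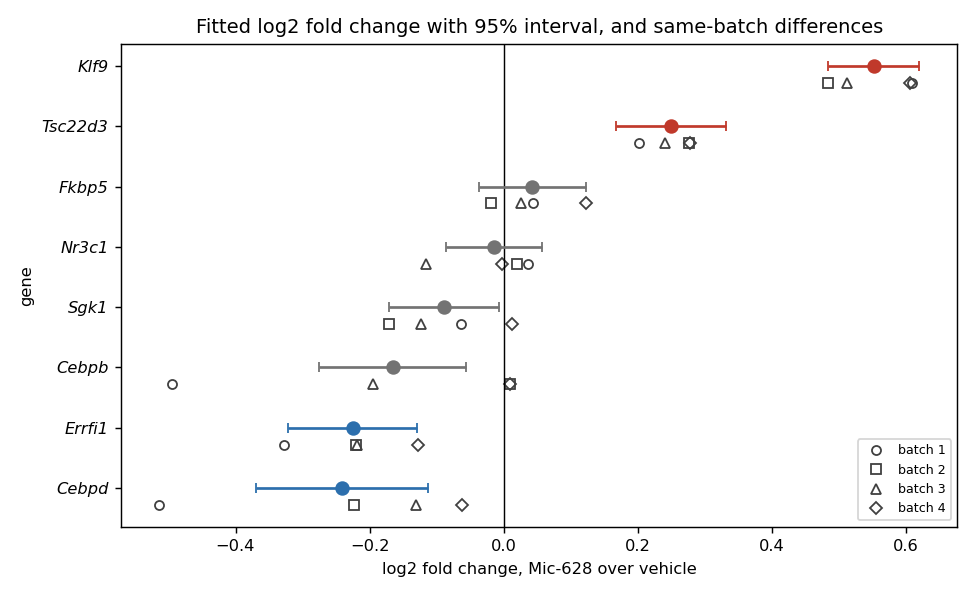
Fitted log2 fold change of Mic-628 over vehicle (horizontal axis) with its 95% interval for the 8 tested genes (filled points, red called higher, blue called lower, grey not called), and below each the difference between the Mic-628 and vehicle library of each batch (open shapes). Klf9 at 0.55 stands apart, Tsc22d3 at 0.25 follows, and the batches of Cebpd spread from -0.51 to -0.06.

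Per length, in FPKM (fragments per kilobase of exon and M fragments), Cebpb was the most abundant with Mic-628, at 71.9 ± 5.69, followed by Sgk1 at 42.8 ± 1.22, Klf9 at 28.0 ± 0.586 and Tsc22d3 at 22.7 ± 0.421 (SD, n = 4 each). Cebpd at 14.3 ± 0.263, Nr3c1 at 13.6 ± 0.522, Errfi1 at 13.2 ± 0.395 and Fkbp5 at 12.7 ± 0.143 FPKM came last, and the FPKM of neighbours in this order of 4 overlapped between libraries. With vehicle, Cebpb had 80.8 ± 7.52, Sgk1 45.6 ± 2.90, Klf9 19.1 ± 0.408, Tsc22d3 19.1 ± 0.555, Cebpd 16.9 ± 2.46, Errfi1 15.5 ± 1.13, Nr3c1 13.7 ± 0.102 and Fkbp5 12.3 ± 0.480 FPKM (SD, n = 4 each). Klf9 thus stood above Tsc22d3 with Mic-628 and level with it with vehicle. From Klf9 down to Errfi1, the vehicle libraries of neighbours in this order overlapped, while those of Errfi1 and Nr3c1 did not, nor those of Nr3c1 and Fkbp5. The summed CPM of the 9 genes was 652.8 to 670.1 with Mic-628 and 614.2 to 683.3 with vehicle, which overlap.

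Among 30 other genes known to be induced through the receptor, 23 were tested, 6 rose, 3 fell and 14 were not called, against 2.13% of all tested rows that rose and 2.25% that fell. The 23 had a median log2 fold change of -0.02. They include Per1, the gene that the study is about, and were listed with results of these data known. The excess of calls over the background therefore carries no test. Per1 rose most (2.53). The others that rose were Angptl4, a secreted lipase inhibitor (0.59), the MAP kinase phosphatase gene Dusp1 (0.41), the water channel gene Aqp1 (0.30), Fbxo32, which encodes the ubiquitin ligase subunit atrogin-1 (0.27), and the transglutaminase gene Tgm2 (0.14). Angptl4 had 12.6 ± 1.73 CPM with Mic-628 and 8.35 ± 1.28 CPM with vehicle, and Fbxo32 had 62.0 ± 1.35 CPM with Mic-628 and 51.5 ± 1.55 CPM with vehicle (SD, n = 4 each). The kinase gene Pdk4 fell (log2 fold change -0.23), as did Pik3r1, which encodes the p85 alpha subunit of PI3 kinase (-0.15), and the metallothionein gene Mt1 (-0.21). Pdk4 had 54.5 ± 3.29 CPM with Mic-628 and 63.7 ± 2.54 CPM with vehicle (SD, n = 4 each). Mt1 overlapped between the groups and was not called by DESeq2 (adjusted p = 0.319). The call of Mt1 was also lost on leaving out vehicle replicate 1 (edgeR adjusted p = 0.0887), vehicle replicate 2 (0.205), or the Mic-628 libraries 1 (0.128), 2 (0.0784) or 3 (0.186). That of Tgm2 was lost without vehicle replicate 2 (0.0689), vehicle replicate 3 (0.0674) or the Mic-628 library 3 (0.0960), and that of Pik3r1 without vehicle replicate 2 (0.0504). Limma-trend on FPKM did not call Angptl4, Pdk4, Pik3r1, Mt1 or Tgm2 in any of its 3 versions (lowest adjusted p 0.0548, for Pdk4), nor Dusp1 in the version over all rows (0.0584).

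Of 20 genes that the receptor is known to restrain, 7 were tested, and 5 had no read in any library. Of the 7 the chemokine genes Ccl2 (log2 fold change -0.62), Ccl7 (-0.58) and Cxcl5 (-0.80) fell, while 4 were not called, among them Vcam1, which encodes an adhesion molecule of inflamed endothelium and fibroblasts (-0.10). Over all tested rows 2.25% fell. All 3 were weakly expressed: Ccl2 had 4.91 ± 0.448 CPM with Mic-628 and 7.51 ± 0.337 CPM with vehicle (SD, n = 4 each), and Cxcl5 had 0.947 ± 0.0786 CPM with Mic-628 and 1.64 ± 0.129 CPM with vehicle (SD, n = 4 each). DESeq2 called Ccl2 alone and gave no adjusted p for Cxcl5. Ccl7 was not called by DESeq2 (adjusted p = 0.0607), nor by edgeR when any single Mic-628 library, vehicle replicate 1 or vehicle replicate 2 was left out (adjusted p 0.0505 to 0.113), nor by limma-trend (0.125, 0.123 and 0.282). Limma-trend over all rows did not call Cxcl5 either (adjusted p = 0.120). The log2 fold changes of the 7 ran from -0.80 to 0.07, with a median of -0.10, so the list was not lowered throughout.

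Of 15 chaperone and co-chaperone genes, which hold or fold the receptor, 1 was called, where 4.37% of all tested rows were called. That was Hsp90aa1, the inducible HSP90 gene, which rose (log2 fold change 0.15; edgeR adjusted p = 0.0121), with 861.0 ± 44.5 CPM with Mic-628 and 777.7 ± 10.4 CPM with vehicle (SD, n = 4 each). Limma-trend did not call it (adjusted p of 0.0847, 0.0858 and 0.194 in its 3 versions). Dnajb1 (0.26), the cyclophilin 40 gene Ppid (0.13) and Dnaja1 (0.09) came next and were not called. Dnajb1 had 66.3, 81.5, 75.3 and 104.1 CPM with Mic-628, against 71.3, 69.8, 70.9 and 62.1 CPM with vehicle, and without Mic-628 replicate 4 its log2 fold change was 0.13 (edgeR adjusted p = 0.235). That of Dnaja1 was then 0.05. Dnajb1 was called without vehicle replicate 1 (edgeR adjusted p = 0.0464) or the Mic-628 library 1 (0.00706), and Ppid without vehicle replicate 1 (0.00319) or the Mic-628 library 4 (0.0356). With the batch number as a block Ppid was called (edgeR adjusted p = 0.0425). Hsp90ab1, the more abundant HSP90 gene, went the other way from Hsp90aa1 and was not called (log2 fold change -0.06; edgeR adjusted p = 0.317). It had 4795.0 ± 54.7 CPM with Mic-628 and 4989.6 ± 33.8 CPM with vehicle (SD, n = 4 each), and the groups did not overlap. Of 17 coregulator genes edgeR called 0, with 1 (Med14, a Mediator subunit gene, log2 fold change 0.10) at an unadjusted p under 0.05, and DESeq2 and limma-trend also called 0. Med14 was called without vehicle replicate 4 (edgeR adjusted p = 0.0431), and without vehicle replicate 1 its log2 fold change was 0.07. Next by p came Ncoa3 (0.08), Arid1a (-0.06) and Hexim1 (-0.07). Among 11 genes of other steroid receptors and of steroid handling 5 were tested, and 1 was called. That was H6pd, which encodes the enzyme that supplies NADPH for cortisone reactivation in the endoplasmic reticulum, with 57.7 ± 1.05 CPM with Mic-628 and 66.6 ± 1.70 CPM with vehicle (SD, n = 4 each; log2 fold change -0.21; edgeR adjusted p = 0.000691). Hsd11b1, the gene of the reactivating enzyme it serves, was below 1 CPM in every library and was not tested. The mineralocorticoid receptor gene Nr3c2 was detected at 1.74 ± 0.167 CPM with Mic-628 and 1.99 ± 0.413 CPM with vehicle and was not called (edgeR adjusted p = 0.625). The drug transporter gene Abcb1b (log2 fold change 0.16) and the steroid reductase gene Srd5a1 (-0.01) were not called either. Of the 5 other C/EBP family genes 3 were tested (Cebpg, Cebpz and Ddit3), with log2 fold changes of 0.06, 0.09 and -0.10. EdgeR called 0 of them, as did DESeq2 and limma-trend, and 2 had an unadjusted p under 0.05. Without vehicle replicate 1, Ddit3 was called (edgeR adjusted p = 0.0405). Cebpa had no read in any library.

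**Figure D4:**
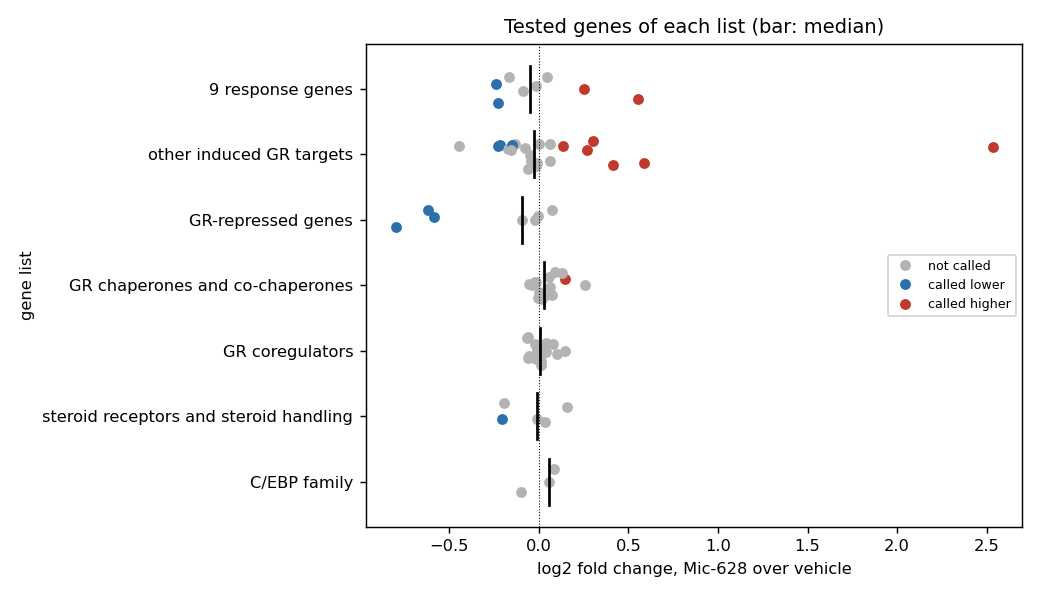
Log2 fold change of Mic-628 over vehicle (horizontal axis) for each tested gene of the 9 response genes and of 6 surrounding lists (rows), red called higher, blue called lower and grey not called, with a black bar at each list's median. Called genes lie on both sides of 0 among induced targets, with Per1 at 2.53, and every list's median lies within 0.1 of 0.

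Of 9757 other rows with a mean of at least 10 CPM, Tead4, Loxl4 and Sema3c had the profiles most like Klf9. The measure was the root-mean-square difference of log2 CPM, each centred on its mean over the 8 libraries, which was 0.054 for Tead4, 0.058 for Loxl4 and 0.063 for Sema3c. Tead4 had 66.7 ± 3.17 CPM with Mic-628 and 44.4 ± 1.09 CPM with vehicle (SD, n = 4 each; log2 fold change 0.59; edgeR adjusted p = 2.15e-10). These rows were picked for their likeness to Klf9 over the same 8 libraries, so this difference and its p are no separate test.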

How the data were processed

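The authors deposited 2 tables for 8 poly(A) RNA-seq libraries of NIH3T3 cells. The first holds the estimated counts that the authors deposited, exon reads per canonical transcript on mm39, in steps of 0.5. The other holds FPKM values that the authors made from these counts, since recomputing them from the counts, exon length and header totals differed by at most 0.0005. The submitters' processing notes name GRCm39 (mm39) and the tools HOMER 4.11, STAR 2.7.10a and bcl2fastq, with no roles. No value columns were left unmatched to samples.

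After rounding to whole numbers, edgeR 4.0.16 in R 4.3.3 tested the counts (filterByExpr with a minimum count of 10, TMM factors of 0.9946 to 1.007, quasi-likelihood F test without a block, Benjamini-Hochberg adjustment over 17128 rows). Dividing the log2 fold change by the square root of F gave the SE. For log2 CPM, which is TMM-scaled like CPM, a prior count of 0.5 was added. Rows below the filter are given as CPM of listed counts. Ratios were tested by exact permutation of the 8 library labels. The alternatives were DESeq2 1.42.0, DESeq2 size factors or library size only in edgeR, no filter or a CPM of at least 1 in 4 libraries, a batch block, and leaving out each library. Others were limma-trend (limma 3.58.1) with a pseudocount of 1 or 0.1 FPKM for rows averaging 0.5 FPKM or more, and with a pseudocount of 1 for all rows with a value. The test was also run on simulated data.

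The batch number equals the replicate number and is shared by 1 library of each group, so the numbers can be used to pair the libraries. Deviations from group means correlated at -0.0925, 0.0744, -0.0213 and -0.0949 in the 4 pairs, within the range of other pairs (-0.117 to 0.141). Replicates differed by more than counting noise (chi-square per row of 1.73 to 5.79), so none was treated as a duplicate.

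Named genes are the 9 response genes, Per1, the 4 genes of smallest p and any called gene of each list, and the 3 rows most like Klf9. Hsp90ab1 was added for comparison with Hsp90aa1. The genes and lists were chosen with earlier results of these data known, so setting a list against all tested rows carries no test. The starts of deposited transcripts on GRCm38 came from GENCODE M21 by transcript ID.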

Additional observations from a re-analysis of the deposited data

Results flagged for a closer look

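In 36 named genes and both groups (72 checks), 2 libraries lay far from the other 3 of their group, by a gap to the nearest over Dixon's critical share of the group's range. Chance gives about 1 such library in 20 groups. Sgk1 had 108.8 CPM in vehicle replicate 4, with 122.5 to 125.1 CPM in the other vehicle libraries. The co-chaperone gene Dnajb1 had 62.1 CPM in vehicle replicate 4, with 69.8 to 71.3 CPM in the others.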

How the results depend on the processing

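Klf9 and Tsc22d3 were called higher under every alternative run, so 2 response genes rose in each. The count of response genes called lower was 2, and became 1 in DESeq2, 0 in each limma-trend version, and 1 to 4 when single libraries were left out. With limma-trend on log2(FPKM + 1), log2(FPKM + 0.1) and log2(FPKM + 1) over all rows, the rows called fell to 277, 273 and 170 (749 in edgeR) and the other induced targets called to 4, 4 and 3 (9 in edgeR), with 0 chaperone genes called. Of restrained genes 3 were called, but 1 in DESeq2 and 1 in limma-trend over all rows. Chaperone genes called were 2 with the batch as a block and 3 with no filter, against 1. The block changed no other call of the named genes. With it, by exact sign-flip tests over 4 pairs, the Klf9 ratios differed by 0.303 (Tsc22d3), 0.509 (Fkbp5), 0.639 (Sgk1) and -1.979 (Per1), with an adjusted p of 0.156, which 4 pairs cannot bring below the threshold. Leaving out each library gave 426 to 802 rows called, the lowest without vehicle replicate 2, 438 without Mic-628 replicate 3, 1 to 3 chaperone genes, 0 to 1 coregulator genes and 0 to 1 other C/EBP genes. The Klf9 ratios then ran from 0.276 to 0.329, 0.495 to 0.524, 0.615 to 0.679 and -2.016 to -1.943, with an adjusted p of 0.0714, the lowest that 3 libraries against 4 gave. The Nr3c1 value then ran from -0.0291 to 0.0131, turning without Mic-628 replicate 3. That of the steroid reductase gene Srd5a1 (-0.01 in the full data) ran from -0.07 to 0.0286, turning without vehicle replicate 4 (0.0225) or Mic-628 replicate 2 (0.0286) or 3 (0.0148). The causes were not tested.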
